A study of Mus musculus with 2 samples.

Results

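The 46 genes described here are the receptors and ligands of the TNF superfamily and the TRAF adaptors, out of 24081 genes in a table of read counts from mouse regulatory T cells (Treg cells, a CD4+ lineage defined by the transcription factor Foxp3 that holds immune responses in check). They were chosen by symbol and not by value: every symbol that starts with Tnfrsf or Tnfsf, together with Fas, Cd27, Cd40, Cd40lg, Cd70, Ltbr, Tnf, Lta, Ltb, Traf1, Traf2, Traf3, Traf5 and Traf6. They comprise 24 receptors, 17 ligands and 5 adaptors. A gene was called measured with a mean of at least 20 unscaled reads over both libraries, which 35 of the 46 reached. Of the other 11, 6 had some reads and 5 had none.

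The 2 libraries of the study were compared, each from cells pooled from 5 to 10 C57BL/6 mice of 5 weeks whose lymph nodes and spleen were sorted for CD4+ YFP+ cells. The KO library came from Foxp3cre/wt mice in which both alleles of the targeted gene, a gene of the SUMO conjugation pathway, were floxed, and the WT library from Foxp3cre/wt mice with 1 floxed and 1 wild-type allele, so that cells of both libraries carry the Cre recombinase and a floxed allele. Cre is driven by Foxp3, an X-linked gene, and the second Foxp3 allele of these mice carries no Cre, so the sort took only the Treg cells in which Cre had been expressed. Since the genotype field of both samples says wild type, the groups rest on the sample titles, KO and WT. Each group is a single library, hence the differences have no replicate check and no test was possible.

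TNF superfamily ligands are mostly trimeric membrane proteins, some of them also shed, that cluster their receptors on another cell or on the same one. Most receptors in T cells recruit TRAF adaptors through their cytoplasmic tails and activate NF-κB and MAP kinases, while a subset carry a death domain and can start apoptosis. In Treg cells the receptors OX40 (Tnfrsf4), 4-1BB (Tnfrsf9), GITR (Tnfrsf18) and TNFR2 (Tnfrsf1b) are known as markers and as costimulators that act beside the T cell receptor and the IL-2 receptor.

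Reads assigned to genes numbered 23789264 in KO and 11662867 in WT. All 6 markers checked for Treg cells (Foxp3, Il2ra, Ctla4, Ikzf2, Cd4 and Cd3e) had reads in both libraries, with a summed level of 5845 reads per 1000000 gene reads (RPM) in KO and 4869 in WT. These markers did not move together. Foxp3 was at 1285 RPM in KO and 732 in WT (log2 ratio 0.89), while Ctla4 was at 86.4 in KO and 147 in WT (-0.69) and Ikzf2 at 198 in KO and 331 in WT (-0.66). Il2ra, Cd4 and Cd3e lay between 0.18 and 0.45. The part of these differences in the values of the family was not tested. Ratios are KO over WT after scaling the counts with TMM factors. Their intervals are exact 95% intervals that cover counting error only, with no spread between mice. RPM levels are divided by gene reads without TMM factors, so they stand slightly lower in KO relative to WT than the ratios do. A level can therefore be lower in KO where the printed ratio is just above 1. Calls use a threshold of 1.5-fold on a log2 ratio with a pseudocount of 1, while the printed folds use none.

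Most of the family was alike in both libraries on this measure. Of the 35 measured members, 2 were at least 1.5-fold higher in KO (Tnfrsf12a and Tnfrsf23), 3 at least 1.5-fold lower (Tnfrsf8, Tnfsf14 and Tnfsf11), and 30 lay between. That is 5.71% of the members higher, against 7.43% of all 10899 measured genes, and 8.57% lower, against 5.51%. As scaled here, the members' shares thus lay near the background in both directions. Other settings, given below, counted 4 lower members. This background moved with the scaling: 810 genes were higher and 600 lower as scaled here, and 623 higher and 758 lower with total gene reads as the scale. The floor for a measured gene was set on unscaled reads, and the KO library was the deeper one. Genes higher in KO therefore passed it more easily than genes lower in KO by the same fold. Tnfrsf12a, with 59 reads in KO and 13 in WT, passed it through its KO reads. The part of this in the higher and lower shares was not tested. The median log2 ratio of the members was 0.02, against 0.01 over all measured genes. Tnfrsf1b lay just inside the threshold (log2 ratio -0.58) and Tnfrsf23 just on it (0.58), and these calls change with the scaling. In bulk samples, fewer cells of a type and less RNA per cell cannot be told apart.

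**Figure D1:**
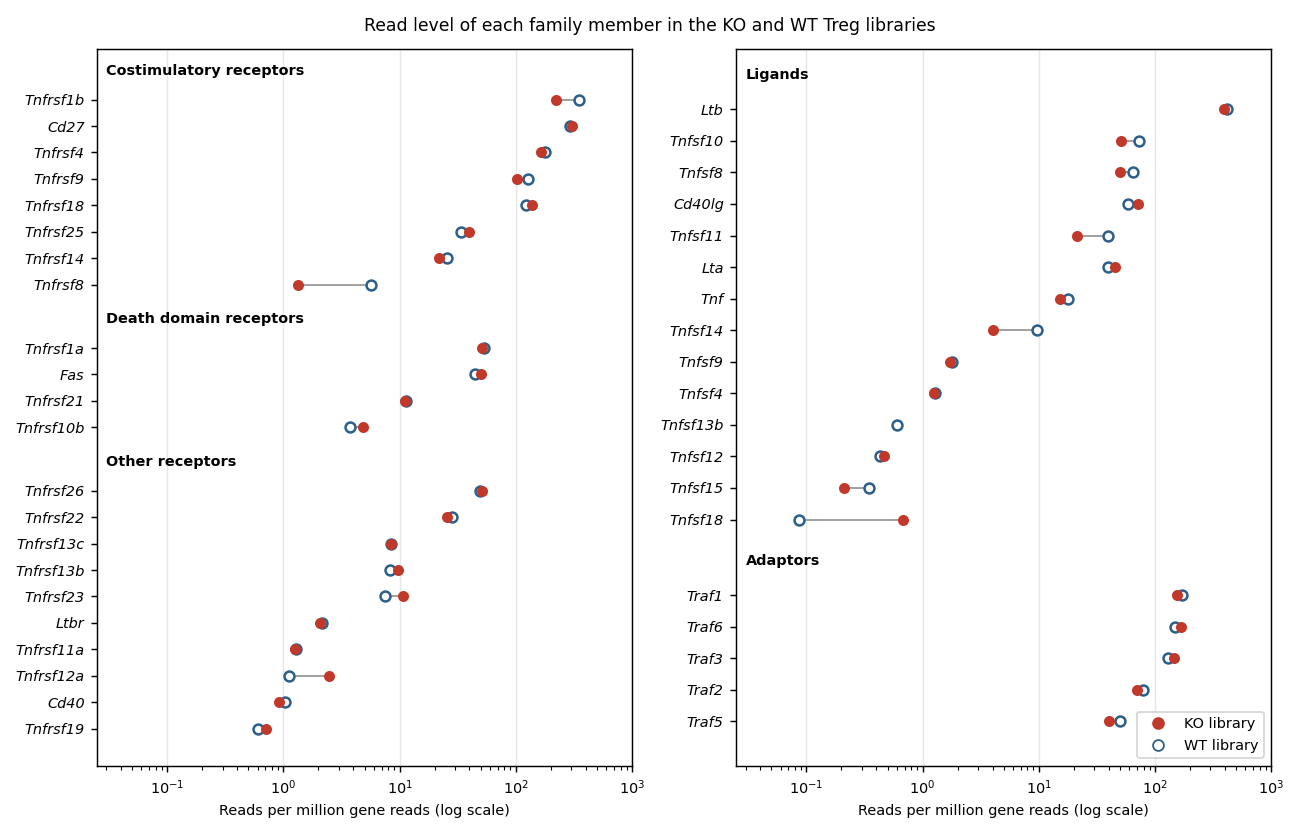
Level in RPM (log axis) of the 41 members with any read, in the KO library (filled) and the WT library (open), grouped by role and ordered by the WT level. Tnfrsf8, Tnfsf14 and Tnfsf11 show wide gaps with KO on the left, and Tnfrsf12a a wide gap with KO on the right; Tnfsf18 had 16 reads in KO and 1 in WT, and Tnfsf13b had no KO read to plot.

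Both libraries had abundant RNA of Cd27 and of the receptors named above as known in Treg cells. To compare levels between genes, reads were divided by the length of the longest annotated transcript in kilobases as well as by library size (RPKM). Like RPM, these levels were made without TMM factors. Cd27, which binds CD70 and supports T cell survival, was the highest receptor at 197 RPKM in KO and 187 in WT. Tnfrsf4 followed with 152 in KO and 163 in WT, and Tnfrsf18 with 117 in KO and 104 in WT. These levels lay between percentiles 95.3 and 97.9 of all measured genes. Tnfrsf1b was at 57.8 RPKM in KO and 91.2 in WT, and Tnfrsf9 at 48.8 in KO and 60.7 in WT. The order of these 5 receptors was the same in both libraries, and Tnfrsf1b lay closer to Tnfrsf9 in KO than in WT.

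The costimulatory receptors differed in size of change. OX40, which prolongs survival of activated T cells, had 3939 reads in KO and 2077 in WT. As scaled here the ratio of Tnfrsf4 was 0.981, with an interval that included no difference (0.930 to 1.03). GITR had 3309 reads in KO and 1438 in WT, 1.19-fold higher (1.12 to 1.27). Tnfrsf4 and Tnfrsf18 are neighbours on the same strand (chr4:156013843-156016612 and chr4:156026164-156028895, GRCm38), and their intervals did not overlap. Exons of Tnfrsf18 share 414 bases with the antisense gene Gm16008, and the strand setting of the counting is not known from the sources used here.

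4-1BB, a receptor induced by activation, had 2456 reads in KO and 1498 in WT, 1.18-fold lower (1.11 to 1.26). Cd27 had 7321 reads in KO and 3394 in WT, 1.12-fold higher (1.07 to 1.16). DR3 (Tnfrsf25), the receptor for TL1A, which also carries a death domain, had 935 reads in KO and 396 in WT, 1.22-fold higher (1.08 to 1.38). HVEM (Tnfrsf14), which binds LIGHT and the inhibitory receptor BTLA, had 516 in KO and 301 in WT, with an interval that included no difference (ratio 0.887, 0.768 to 1.03). All of these lay within the threshold, and with counting intervals this narrow the differences between mice, which were not measured, limit what can be said of them.

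TNFR2 and CD30, products of adjacent genes, had the lowest ratios among the receptors. Tnfrsf1b, which encodes TNFR2, the receptor through which TNF costimulates Treg cells, had 5247 reads in KO and 4063 in WT, or 221 RPM in KO and 348 in WT. After TMM scaling, the ratio without a pseudocount was 0.668 (0.641 to 0.696), just short of the call, as it was with the pseudocount. On total gene reads, the scale of the RPM levels, the log2 ratio was -0.66, past the threshold. Tnfrsf8, which encodes CD30, a receptor of activated lymphocytes, had 32 reads in KO and 66 in WT although the KO library was the deeper one. It was 3.99-fold lower (2.58 to 6.29), the largest difference among the measured members, and the KO level of 0.394 RPKM lay at percentile 2.68 of measured genes. The genes lie on the minus strand of chromosome 4 (Tnfrsf1b at chr4:145213463-145246870, Tnfrsf8 at chr4:145267137-145315164). The other 5 receptor genes of that chromosome, Tnfrsf4, Tnfrsf9, Tnfrsf14, Tnfrsf18 and Tnfrsf25, lay within the threshold, with log2 ratios between -0.24 (Tnfrsf9) and 0.29 (Tnfrsf25).

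None of the other receptors with a death domain passed the threshold, and their ratios were all at or above 1. Fas, which triggers apoptosis when bound by Fas ligand, had 1200 reads in KO and 517 in WT, 1.2-fold higher (1.08 to 1.33). TNFR1 (Tnfrsf1a), the receptor of most tissues for TNF, had 1227 in KO and 626 in WT, and DR6 (Tnfrsf21) 267 in KO and 133 in WT, with ratios of 1.01 (0.920 to 1.12) and 1.04 (0.840 to 1.29). The TRAIL receptor Tnfrsf10b had 115 in KO and 44 in WT, with an interval that included no difference (1.35-fold, 0.947 to 1.96). The receptors for TNF therefore stood at different ratios, with Tnfrsf1b at 0.668 and Tnfrsf1a at 1.01.

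**Figure D2:**
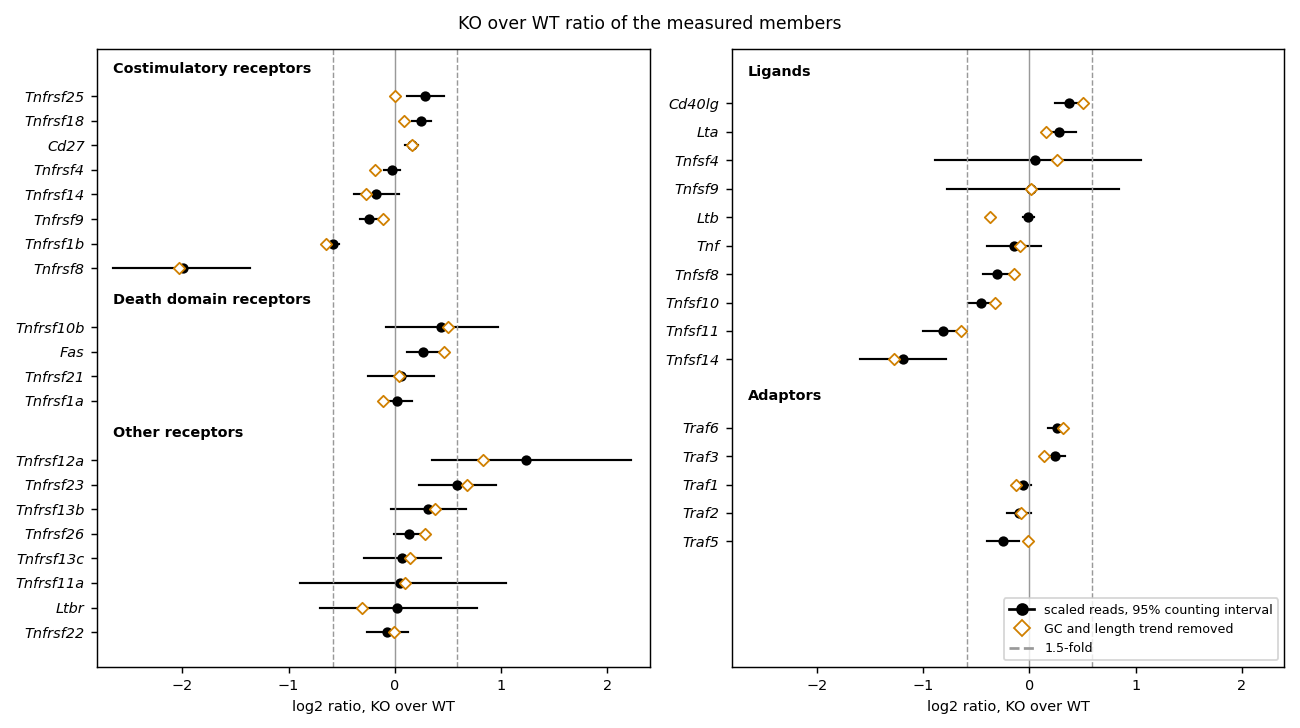
log2 ratio of KO over WT for the 35 measured members without a pseudocount (black points) with exact 95% intervals for counting error (lines), and the log2 ratio after the trend on GC content and length was removed (open diamonds); dashed lines mark 1.5-fold. Tnfrsf8, Tnfsf14 and Tnfsf11 lie left of the dashed line with their whole intervals, while Tnfrsf1b and Tnfrsf23 lie on the lines.

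Among receptors better known from B cells, myeloid cells or stroma, Tnfrsf12a and Tnfrsf23 were higher. Tnfrsf12a encodes Fn14, the TWEAK receptor, which is induced by growth factors and injury in many tissues. It had 59 reads in KO and 13 in WT, 2.35-fold higher with a wide interval (1.27 to 4.67). Tnfrsf23 encodes a mouse decoy receptor for TRAIL that lacks a death domain. It had 253 reads in KO and 87 in WT, 1.5-fold higher (1.17 to 1.94).

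Tnfrsf23 lies in a cluster on chromosome 7 with the related decoy receptor Tnfrsf22 and with Tnfrsf26 (chr7:143607659-143685872 in all). Reads that aligned to several places, 15.0% of the summed counts in KO and 15.6% in WT, were counted to no gene. Similar sequence can thus take reads from such genes. Tnfrsf22 had 608 reads in KO and 330 in WT (ratio 0.953, 0.832 to 1.09), and Tnfrsf26 had 1224 in KO and 577 in WT (1.10, 0.993 to 1.21). Neither of them passed the threshold. Exons of Tnfrsf23 and Tnfrsf26 also share 164 and 107 bases with the antisense gene E230032D23Rik.

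The B cell receptors of the family were low and close between libraries. The BAFF receptor Tnfrsf13c had 199 reads in KO and 98 in WT, and TACI (Tnfrsf13b) had 231 in KO and 96 in WT (log2 ratios 0.07 and 0.31). Cd40, the costimulatory receptor of B cells and dendritic cells, had 22 in KO and 12 in WT, under the floor, and Tnfrsf17, the plasma cell receptor BCMA, had none in either. The 4 B cell markers used had a summed level of 73.4 RPM in KO and 101 in WT, none of them at 0. Cd79b and Ms4a1 were lower in KO (log2 ratios -1.04 and -0.71), and Cd79a and Pax5 were at 0.13 and 0.30. Their part in the values of Tnfrsf13c and Tnfrsf13b was not tested.

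The lymphotoxin β receptor Ltbr had 49 reads in KO and 25 in WT, and the RANK gene Tnfrsf11a 30 in KO and 15 in WT, both with ratios near 1 and intervals from 0.614 to 1.71 and from 0.539 to 2.07. Tnfrsf19 (TROY), a receptor of neural and epithelial cells, was under the floor with 17 reads in KO and 7 in WT. The secreted decoy osteoprotegerin (Tnfrsf11b) had none in either library. A count of 0 allows a level of up to 0.126 RPM in KO and 0.257 in WT, for counting error only.

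The ligands at least 1.5-fold lower in KO among those measured were LIGHT and RANKL. Tnfsf14, which encodes LIGHT, a ligand of HVEM and of the lymphotoxin β receptor, had 96 reads in KO and 113 in WT, 2.28-fold lower (1.72 to 3.02). Tnfsf11, which encodes RANKL, the T cell and stromal ligand that drives osteoclasts and lymph node development, had 510 in KO and 464 in WT, 1.76-fold lower (1.55 to 2). For Tnfsf14 the deeper KO library held fewer reads than WT, and for Tnfsf11 only slightly more. TRAIL (Tnfsf10), which can kill cells through its death receptors, had 1211 in KO and 858 in WT, 1.37-fold lower (1.25 to 1.5) and within the threshold. The CD30 ligand Tnfsf8 had 1191 in KO and 761 in WT, 1.24-fold lower (1.13 to 1.35) and also within it.

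The other abundant ligands were close. Ltb, the membrane anchor of lymphotoxin, was the highest member of the family per length, at 276 RPKM in KO and 294 in WT. It had 9320 reads in KO and 4856 in WT (ratio 0.993, 0.959 to 1.03). Lta, the secreted lymphotoxin chain, had 1086 in KO and 462 in WT, 1.22-fold higher (1.09 to 1.36), and Tnf had 362 in KO and 207 in WT (0.904, 0.760 to 1.08). Ltb, Tnf and Lta lie side by side on chromosome 17 (chr17:35194439-35205351), and none of them passed the threshold. Cd40lg, the ligand by which helper T cells activate B cells, had 1698 in KO and 680 in WT, 1.29-fold higher (1.18 to 1.41).

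The ligands of OX40, 4-1BB, GITR, CD27 and DR3 had few reads in these cells or none. OX40 ligand (Tnfsf4) had 30 in KO and 15 in WT, and 4-1BB ligand (Tnfsf9) 41 in KO and 21 in WT, with ratios of 1.03 (0.539 to 2.07) and 1.01 (0.583 to 1.80). Exons of Tnfsf9 share 192 bases with Gm11110 on the opposite strand, which had 166 reads in KO and 61 in WT. Under the floor, GITR ligand (Tnfsf18) had 16 reads in KO and 1 in WT, a ratio of 8.27 whose interval ran from 1.29 to 347. BAFF (Tnfsf13b), a myeloid and stromal survival factor for B cells, had none in KO and 7 in WT, at least 4.51-fold lower against a floor of 3 reads in the KO library if the 7 reads are taken as exact. Its exact interval, which allows for counting error in both libraries, starts at 2.79-fold lower. TL1A (Tnfsf15) had 5 in KO and 4 in WT, and TWEAK (Tnfsf12) 11 in KO and 5 in WT. Cd70, Tnfsf13 and the read-through entry Tnfsf12Tnfsf13 had no read in either library. Exons of Tnfsf13 and Tnfsf12 share 983 and 731 bases with that read-through gene (Tnfsfm13 in the annotation), and reads shared between genes were not counted to either.

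Markers of other cells that make several of these ligands had reads in both libraries, at levels that differed widely between the lists. The 6 dendritic cell markers summed to 25.8 RPM in KO and 21.3 in WT, with none at 0. The 5 monocyte and macrophage markers found summed to 378 in KO and 432 in WT, with none at 0, led by Csf1r (229 in KO and 274 in WT) and Lyz2 (123 in KO and 126 in WT). The 5 NK cell markers summed to 7.78 in KO and 7.20 in WT, with Klra8 at 0 in both; Klrb1c had 18 reads in KO and 30 in WT, and Eomes 145 in KO and 43 in WT. The CD8 T cell markers Cd8a and Cd8b1 summed to 40.4 in KO and 34.5 in WT. The 5 stromal and endothelial markers summed to 318 in KO and 307 in WT, nearly all of it Pecam1 (316 in KO and 303 in WT), with Pdpn at 0 in both. Whether such cells were present, and what part they had in the ligand values, was not tested.

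Set beside their ligands, the receptors OX40, 4-1BB, GITR and CD27 met little ligand RNA in the same libraries. The receptor was above the ligand in RPKM in both libraries for 11 of 16 pairs, each receptor being set beside 1 of its ligands. In these 11 pairs the ligands Tnfsf18, Cd70, Tnfsf15, Tnfsf13b and Tnfsf12 were under the floor. The level of Tnfsf12 may be too low, since reads shared with its read-through gene were not counted while its full length was used. Tnf was set beside both Tnfrsf1b and Tnfrsf1a. Tnfrsf4 stood at 152 RPKM in KO and 163 in WT, and its ligand Tnfsf4 at 0.685 in KO and 0.698 in WT. Tnfsf9 stood at 1.34 in KO and 1.4 in WT, and Tnfsf18 at 0.326 in KO and 0.0415 in WT, both far under their receptors Tnfrsf9 and Tnfrsf18. Cd27 was at 197 in KO and 187 in WT while its ligand gene Cd70 had no read.

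The order was the other way round for 5 pairs in both libraries. Ltb, Cd40lg, Tnfsf11, Tnfsf10 and Tnfsf8 were above their receptors Ltbr, Cd40, Tnfrsf11a, Tnfrsf10b and Tnfrsf8 in RPKM. For the CD30 pair, the ligand Tnfsf8 was at 13.2 RPKM in KO and 17.1 in WT, and the receptor Tnfrsf8 at 0.394 in KO and 1.66 in WT. For LIGHT, the lower ligand Tnfsf14 (2.18 in KO, 5.25 in WT) stood beside a receptor Tnfrsf14 that lay within the threshold (18.5 in KO, 22 in WT).

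**Figure D3:**
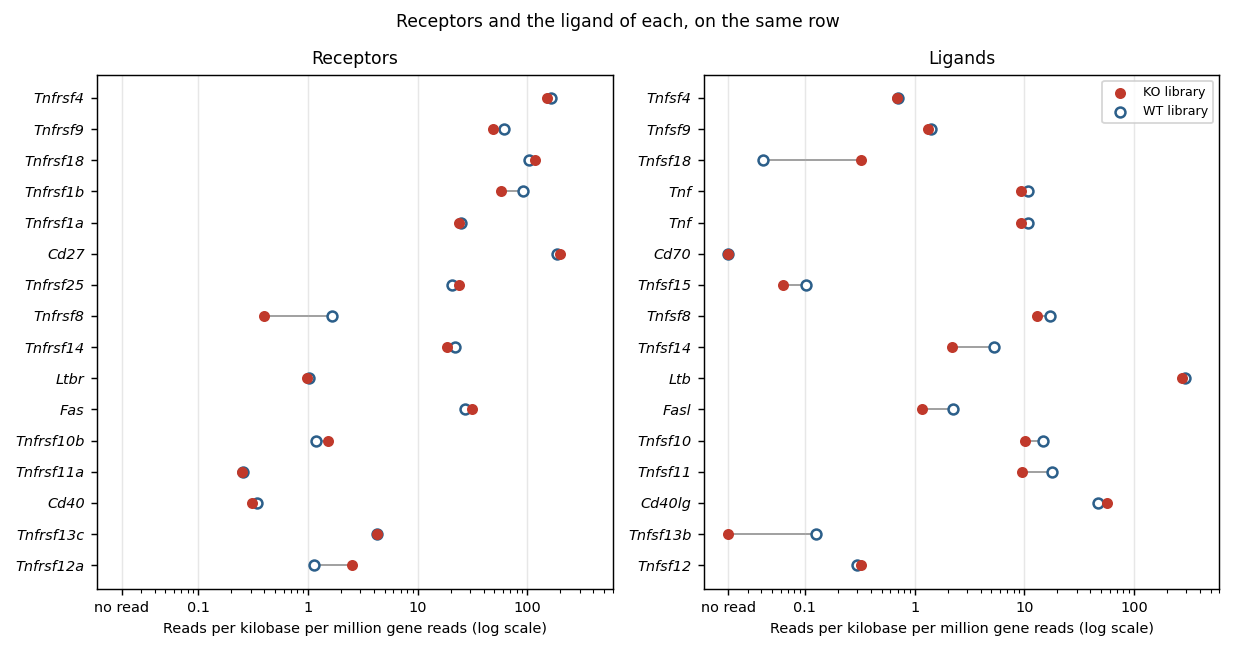
Level per length (RPKM, log axis) of receptors (left) and of a ligand of each (right) on the same row, in the KO library (filled) and the WT library (open). Receptors of the upper rows, such as Tnfrsf4 and Cd27, are high where the ligand is low, and Ltb and Cd40lg are high where the receptor is low.

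The TRAF adaptors were close in both libraries. Traf1, an NF-κB-induced adaptor that binds TNFR2 and 4-1BB together with Traf2, had 3686 reads in KO and 1991 in WT, a ratio of 0.957 (0.906 to 1.01). Traf2, which links these receptors to kinase activation, had 1667 in KO and 923 in WT (0.934, 0.861 to 1.01). Traf3, which restrains the alternative NF-κB pathway, had 3489 in KO and 1524 in WT, 1.18-fold higher (1.11 to 1.26). Traf6, which serves CD40, RANK and the IL-1 and Toll-like receptors, had 4000 in KO and 1733 in WT, 1.19-fold higher (1.13 to 1.26). Traf5, an adaptor of CD27 and OX40 among others, had 950 in KO and 584 in WT, 1.19-fold lower (1.07 to 1.32), and its exons share 205 bases with the antisense gene Gm26879. All 5 lay within the threshold.

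Downstream of the receptors, a list of 39 signalling and NF-κB genes was measured in full. Of these, 2 were at least 1.5-fold higher in KO, none was 1.5-fold lower and 37 lay between. That is 5.13% higher and 0% lower, against 7.43% and 5.51% of all measured genes. Log2 ratios were above 0 for 27 and below 0 for 12 genes of the list, against 5601 and 5298 of all measured genes. The median log2 ratio was 0.17, against 0.01 over all measured genes. Map3k14, which encodes NIK, the kinase of the alternative NF-κB pathway that TRAF3 keeps low, had 3563 reads in KO and 1099 in WT, 1.68-fold higher (1.57 to 1.80). Bcl3, a nuclear IκB protein, had 2465 in KO and 812 in WT, 1.57-fold higher (1.45 to 1.70). Tnfaip3, the NF-κB-induced inhibitor A20, had 7695 in KO and 2708 in WT and lay just within the threshold (1.47-fold, 1.41 to 1.54). Nfkbia, the IκBα gene, had a log2 ratio of 0.46, Nfkb2 of 0.44, and Rel of 0.19, and the lowest in the list was Malt1 at -0.39. With the trend on GC content and length removed, Map3k14 was at 0.42 and Bcl3 at 0.25, within the threshold. Tnfaip3 at 0.59 was then the sole gene of the list past it, and the list median remained 0.17.

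The ratio moved with transcript GC content over the whole table. Over 10467 genes, which share their libraries and are not replicates, Spearman's rho of ratio and GC content was 0.41. Over the 35 measured members it was 0.07. When genes were cut into 10 equal bins by GC content, the median log2 ratio was -0.18 in the lowest bin and 0.36 in the highest. Median GC content was 52.1% for the measured members and 49.5% for all measured genes. With a smooth function of GC content and length subtracted, rho was 0.01 over all genes and -0.29 over the members. Of the 35 measured members, 2 were then at least 1.5-fold higher and 4 lower, Tnfrsf1b joining Tnfrsf8, Tnfsf14 and Tnfsf11. Of all genes, 5.15% were higher and 5.14% lower. The members' lower share thus stood further above the background than before the trend was removed. Tnfrsf8 then had a log2 ratio of -2.03, Tnfsf14 of -1.27, Tnfsf11 of -0.65 and Tnfrsf1b of -0.65, and Tnfrsf12a and Tnfrsf23 of 0.83 and 0.68. Ltb, with a GC content of 61.0%, moved to -0.37, and Tnfrsf25, with 59.4%, to 0.01. Tnfrsf4 moved from -0.03 to -0.18 and Tnfrsf9 from -0.24 to -0.11, outside their counting intervals. They were among 13 of the 35 measured members that moved outside these intervals, Traf3, Tnfsf8, Tnfsf10 and Tnfrsf26 included. The small differences of Tnfrsf18 (0.08), Lta (0.16) and Traf5 (-0.01) also became smaller, and that of Fas (0.46) and Cd40lg (0.51) larger.

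**Figure D4:**
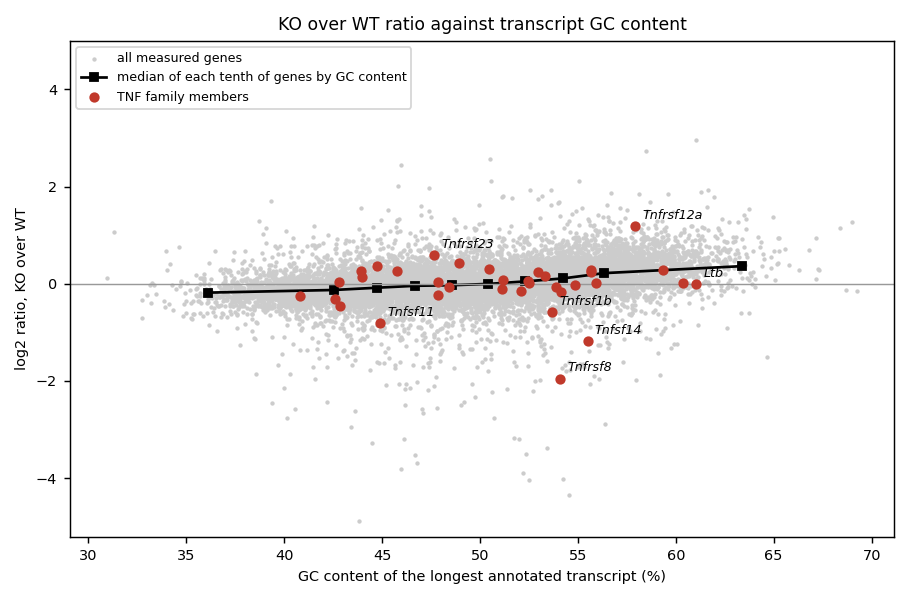
log2 ratio of KO over WT against the GC content of the longest annotated transcript for measured genes (grey), the median of each of 10 equal bins of genes by GC content (black line) and the 35 measured members (red). Tnfrsf8 and Tnfsf14 lie far below the line at GC contents of 54.1% and 55.5%, and Ltb lies below it at a log2 ratio of -0.01.

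The promoters of the 3 lower members and of Tnfrsf1b are shown because these genes were the lowest in KO relative to WT among the measured members. Each sequence runs from 250 bases before to 50 bases after the RefSeq start (GRCm38.p6), all on the minus strand, written 5′ to 3′ along the gene. Capitals mark matches on either strand to the AP-1 motif TGANTCA and to the NF-κB motif.
Tnfrsf8, chr4:145315115-145315414: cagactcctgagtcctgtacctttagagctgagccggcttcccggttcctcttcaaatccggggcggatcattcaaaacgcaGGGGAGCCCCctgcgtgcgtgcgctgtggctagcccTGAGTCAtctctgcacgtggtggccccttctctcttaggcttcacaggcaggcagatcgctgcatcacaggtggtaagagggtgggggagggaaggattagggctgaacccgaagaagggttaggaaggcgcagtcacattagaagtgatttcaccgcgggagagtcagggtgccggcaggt
Tnfrsf1b, chr4:145246821-145247120: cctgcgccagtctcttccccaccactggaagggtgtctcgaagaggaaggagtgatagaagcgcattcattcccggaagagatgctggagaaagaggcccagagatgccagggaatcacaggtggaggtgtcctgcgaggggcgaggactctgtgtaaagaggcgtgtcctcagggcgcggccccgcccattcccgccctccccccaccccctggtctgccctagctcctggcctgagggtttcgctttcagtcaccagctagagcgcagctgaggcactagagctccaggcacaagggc
Tnfsf14, chr17:57194132-57194431: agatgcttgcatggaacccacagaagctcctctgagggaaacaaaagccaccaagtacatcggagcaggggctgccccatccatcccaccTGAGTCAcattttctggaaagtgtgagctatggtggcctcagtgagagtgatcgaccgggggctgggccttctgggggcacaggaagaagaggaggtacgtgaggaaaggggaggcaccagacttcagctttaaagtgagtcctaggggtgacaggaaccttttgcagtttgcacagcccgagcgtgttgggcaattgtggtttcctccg
Tnfsf11, chr14:78307994-78308293: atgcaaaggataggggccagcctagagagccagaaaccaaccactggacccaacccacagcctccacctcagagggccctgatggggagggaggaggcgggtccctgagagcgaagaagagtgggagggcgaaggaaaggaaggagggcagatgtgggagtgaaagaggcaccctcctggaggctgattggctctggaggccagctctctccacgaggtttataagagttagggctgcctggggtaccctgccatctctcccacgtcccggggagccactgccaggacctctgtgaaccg

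The AP-1 motif was found in Tnfrsf8, where it starts at position -132 from the transcription start, and in Tnfsf14 at -160. The NF-κB motif was found in Tnfrsf8 at -168, and no motifs overlapped in these windows. Neither motif was in the windows of Tnfrsf1b and Tnfsf11. Of 35 member genes with a RefSeq promoter, 6 held the AP-1 motif in at least 1 promoter and 4 the NF-κB motif. These are not the 35 measured members, since they include Tnfrsf17 and Tnfsf13, which had no read. The AP-1 motif was in 17.9% of the 39 promoters of members, against 7.81% of all 32851 promoters of this length, and the NF-κB motif in 10.3%, against 4.51%. The promoters of Tnfsf13b overlap and hold the same AP-1 site, which was counted in each of them. Tnfrsf9, whose ratio lay within the threshold, held both motifs as well, in the second of its promoters. A match of letters is not a binding site.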

How the data were processed

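Messenger RNA of sorted Treg cells was captured on oligo-dT beads and made into libraries with a transposase-based kit, per the labels' protocols. TopHat2 2.0.3, HTSeq and build mm10 were used, per the submitters' processing notes; the sources used here give neither annotation nor strand setting. The values the authors deposited are raw read counts per gene, 24086 entries of which 5 are the counter's categories for reads outside genes. These were left out of library sizes, and 76.6% of the summed counts remained in each library.

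Counts were scaled with TMM factors of edgeR 4.0.16 (0.974 for KO, 1.03 for WT) in R 4.3.3, with a pseudocount of 1 for log2 ratios. Intervals are exact conditional binomial (Clopper-Pearson) at 95%, treat reads as independent molecules, which reads without molecular identifiers are not, and cover counting error only. Transcript length and GC content came from GENCODE M21 (GRCm38, the same assembly as mm10), matched for 96.0% of measured genes and all 35 measured members. The trend on GC content and length was fitted with mgcv 1.9.3. Every member was named with its reads; list genes past 1.5-fold were named. The members and lists were chosen with earlier results of these data known. The scripts were tested on simulated data. The targeted gene and a gene of the lists are not reported here. Alternatives were DESeq2 1.42.0 size factors, total-count scaling, a pseudocount of 5, lower floors and a 2-fold threshold.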

Additional observations from a re-analysis of the deposited data

How the results depend on the processing

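Calls close to 1.5-fold depended on the scaling. The count of higher members was 1 with DESeq2 size factors, with total-count scaling, and with a pseudocount of 5, against 2 as reported, because Tnfrsf23 lay on the threshold (log2 ratio 0.58 with DESeq2 size factors, 0.51 with total counts and 0.57 with the pseudocount of 5). It was also 1 at a 2-fold threshold, which Tnfrsf12a alone passed. The count of lower members was 4 with DESeq2 size factors, total counts and the trend removed, each time adding Tnfrsf1b (-0.59, -0.66 and -0.65), and 2 at 2-fold. Total counts moved the median of all measured genes by less than 0.1, to -0.06, and turned the sign of 7 members whose log2 ratios lay between 0.01 and 0.07. Removal of the trend turned Tnfrsf1a (-0.11) and Ltbr (-0.31). No called member changed sign under any of these settings. The NF-κB list had 1 higher gene with total counts and 1 with the trend removed, against 2, and the genes outside the name rule had 0 higher with the trend removed, against 1. Over all genes, the trend's removal left 539 higher against 810, total counts gave 623 higher and 758 lower against 810 and 600, and with no floor 2617 were higher and 1867 lower. The cause of these shifts was not tested beyond the settings' own construction. No paired analysis was possible because each group holds 1 library. Few reads widen the counting intervals of genes such as Tnfrsf12a, Tnfrsf8 and Tnfsf4, and the spread between mice was not measured for any gene.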

Other observations

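A list of 13 related genes that the name rule does not take holds superfamily receptors and ligands, other TRAF proteins, TRAF3-interacting proteins and the Tnfaip8 family. Of these 9 were measured, with 1 at least 1.5-fold higher in KO, 1 lower and 7 between (11.11% in each direction, against 7.43% higher and 5.51% lower of all measured genes), and a median log2 ratio of 0.01, the same as over all measured genes. Traf4, a TRAF family member best known from epithelial cells, had 1596 reads in KO and 505 in WT, 1.63-fold higher (1.48 to 1.81; log2 ratio 0.53 with the trend on GC content and length removed, within the threshold). Fasl, the ligand of Fas, had 54 reads in KO and 51 in WT, 1.83-fold lower (1.22 to 2.73). Relt, an orphan receptor of the family, had 1671 reads in KO and 580 in WT (1.49-fold higher, 1.35 to 1.64). Tnfaip8 and Tnfaip8l2, which bear the family's name for their induction by TNF or their likeness to each other, had log2 ratios of -0.45 and -0.29. Edar, Eda2r and Eda, the ectodysplasin receptors and ligand of skin appendages, had no read in either library, and Ngfr had 4 in KO and 6 in WT.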
